A study of Homo sapiens with 6 samples.

Results

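Solute carriers are membrane proteins that move amino acids, sugars, ions and other small molecules across the plasma membrane or organelle membranes, and their genes carry symbols that begin with SLC and a family number. The genes described here are those whose symbol in the array annotation is SLC followed by a digit, read at the probe with the highest mean over 6 arrays. Of 37 such symbols, 10 antisense genes and 1 pseudogene were left out by the rule, which left 26 of the 14884 genes with a value under 1 name. Each of the 26 had a single probe. They were compared between THP-1 cells, a human monocytic leukaemia line in long use, that expressed a short hairpin RNA against RKIP and THP-1 cells with the empty control vector. Both groups carried the lentiviral vector psi-LVRU6GP and were selected and kept in 1.5 µg/mL puromycin, and each was measured on 3 Affymetrix Human Gene 2.0 ST arrays labelled as biological replicates. The empty vector expresses no hairpin, so the loss of RKIP and the presence of a hairpin cannot be told apart. The labels do not say whether the replicates came from separate transductions, so p-values rest on array-to-array spread that may be technical in part.

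The label of solute carrier transporters held for 22 of the 26 genes. SLC2A4RG encodes a transcriptional regulator named after the glucose transporter gene that it acts on, and SLC20A1-DT, SLC2A1-DT and SLC9A3-OT1 are non-coding RNA genes named after a neighbouring or overlapping carrier gene. SLC2A1-DT was formerly called SLC2A1-AS1, a name under which the rule would have dropped it. The long-studied carrier families were hardly represented. The amino acid families SLC1, SLC3, SLC6, SLC7, SLC38 and SLC43 held 1 gene, SLC38A12, and the mitochondrial family SLC25 held 2, SLC25A15 and SLC25A2. The sugar family SLC2 held only SLC2A4RG and SLC2A1-DT, neither of which is a transporter, and the metal families SLC30 and SLC39 held 0. Other carrier genes were not analysed here.

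Most of the 22 transporter genes belong to families that were given SLC numbers late. Of these, 11 encode proteins of the major facilitator superfamily, whose members share a fold of paired transmembrane bundles that rock open to either side of the membrane. Several were known before by MFSD names, such as MFSD5 for SLC61A1 and MFSD14B for SLC71A2. The SLC66 family encodes PQ-loop proteins, the group that includes exporters of amino acids from lysosomes. The substrates of many of these carriers are unknown or are known from few studies. In acute myeloid leukaemia cells, carriers of nutrients and organelle membranes are of interest because rapid division depends on uptake and on recycling in lysosomes.

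The targeted gene and the cell type were checked first. PEBP1, which encodes RKIP, stood at 8.25, 8.18 and 8.24 in the RKIP shRNA arrays, against 9.52, 9.77 and 9.75 in the control arrays (log2 values), a log2 change of -1.46 ± 0.09 (SE, limma adjusted p = 0.000228). Of 12 myeloid markers 6 were measured and 4 of them rose, where 10.0% of all genes did. The 4 that rose all had a mean of at least 6 over the arrays, a level at which 1188 of all 6045 genes rose. LYZ, the lysozyme gene, stood at 10.09 in RKIP shRNA and 7.55 in control cells, and the myeloperoxidase gene MPO at 13.03 in RKIP shRNA and 12.76 in control cells. The summed log2 level of the 6 measured myeloid markers ran from 47.29 to 48.49 in RKIP shRNA arrays and from 43.88 to 43.98 in control arrays. LYZ had the largest log2 change among them, at 2.55. The monocyte marker CD14 was under 4.08, the median of all rows, in both groups. Of 3 measured T cell markers 1 rose, CD5, and the 1 measured fibroblast marker, FN1, rose by 0.86 on the log2 scale. Of 2 measured B cell markers 1 fell, VPREB3, and of 5 measured epithelial markers 1 fell, KRT18. Erythroid markers gave 0 calls by limma, with neither of the 2 measured genes at an unadjusted p under 0.05. The part of the shift in myeloid markers in the results below was not tested.

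Among the SLC genes, 5 rose and 1 fell in RKIP shRNA cells, and the differences were small. SLC61A1, SLC38A12, SLC71A2, SLC68A1 and SLC35F6 were higher, by 0.24 to 0.52 on the log2 scale, and SLC49A4 was lower, by a log2 change of -0.66. No SLC gene differed by as much as 2-fold. The 6 called genes make up 23.1% of the 26, against 20.2% of all 14884 genes (limma, Benjamini-Hochberg adjusted p under 0.05). Over all genes, 10.0% rose and 10.2% fell. The arrays of the groups were fully apart for 13 of the 26 genes, a share of 50%, beside 37.9% of all genes. They were apart upward for 10 of the 26 and downward for 3, where 19.8% of all genes were apart upward and 18.1% downward. These shares depend on level, by a split at a mean of 6 chosen after the values had been seen. At a mean of at least 6, the groups were apart for 71.4% of 14 SLC genes and 63.7% of all genes. Under 6, they were apart for 25% of 12 SLC genes and 20.2% of all genes. Of all protein-coding genes, 42.1% were apart. The median log2 change of the 26 genes was 0.10, beside 0.02 over all genes. In bulk RNA, fewer cells of a kind and less RNA per cell cannot be told apart.

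**Figure D1:**
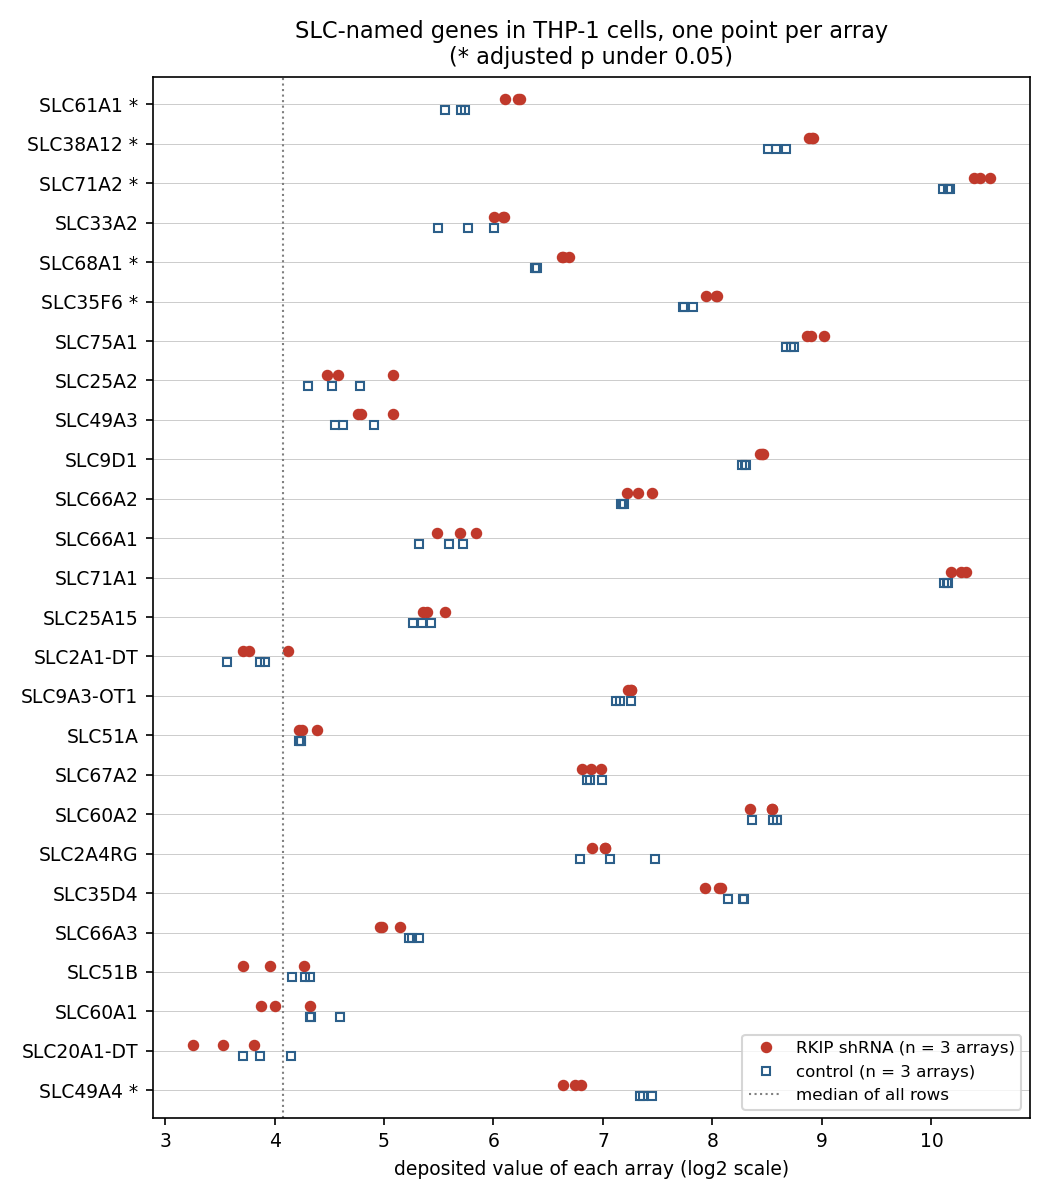
Deposited value (log2 scale, horizontal axis) of each SLC-named gene in every array, with filled circles for the 3 RKIP shRNA arrays, open squares for the 3 control arrays and a dotted line at the median of all rows, 4.08. Genes run from the largest rise at the top to the largest fall at the bottom. The groups are apart for SLC61A1 at the top and SLC49A4 at the bottom and interleave for 13 genes.

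SLC49A4, the only SLC gene that fell, encodes a lysosomal membrane protein of the major facilitator superfamily and was known earlier as DIRC2, after a chromosome break in renal carcinoma. Its values were 6.74, 6.64 and 6.80 in RKIP shRNA arrays, against 7.34, 7.37 and 7.45 in control arrays. All 3 RKIP shRNA values lay below all control values, with more than 0.5 between the nearest arrays. The means were 6.73 ± 0.08 and 7.38 ± 0.06 (SD, n = 3 arrays each) in RKIP shRNA and control cells, a log2 change of -0.66 ± 0.07 (SE, limma adjusted p = 0.00173), or 1.58-fold lower. The 95% interval of the log2 change ran from -0.83 to -0.48. The call was kept in all 6 fits that left out a single array, where the log2 change ran from -0.69 to -0.61.

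SLC61A1, which had the largest rise of the set, encodes a major facilitator protein described as a molybdate transporter and formerly named MFSD5. It read 6.24, 6.11 and 6.22 in RKIP shRNA arrays, against 5.74, 5.56 and 5.70 in control arrays. The groups did not overlap. Its means were 6.19 ± 0.07 and 5.67 ± 0.10 (SD, n = 3 arrays each) in RKIP shRNA and control cells, a log2 change of 0.52 ± 0.08 (SE, limma adjusted p = 0.00483), or 1.44-fold. The 95% interval ran from 0.33 to 0.71. This call too was kept whichever array was left out, with adjusted p-values from 0.0113 to 0.0231 in those limma fits.

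SLC38A12, formerly TMEM104, is a sequence relative of amino acid carriers whose own substrate is little studied. It stood at 8.91, 8.92 and 8.89 in RKIP shRNA arrays, against 8.68, 8.50 and 8.58 in control arrays, a log2 change of 0.32 ± 0.07 (SE, limma adjusted p = 0.0208). The RKIP shRNA arrays were close together and all above the controls. SLC71A2, formerly MFSD14B, is a major facilitator gene without a settled substrate. It stood at 10.44, 10.39 and 10.53 in RKIP shRNA arrays, against 10.11, 10.17 and 10.15 in control arrays, a log2 change of 0.31 ± 0.07 (SE, limma adjusted p = 0.0202).

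SLC68A1, formerly MFSD13A or TMEM180, read 6.69, 6.63 and 6.62 in RKIP shRNA arrays, against 6.40, 6.38 and 6.39 in control arrays. Its log2 change was 0.26 ± 0.06 (SE, limma adjusted p = 0.026), and the spread within each group was small beside the gap. SLC35F6, a relative of nucleotide sugar carriers that was named ANT2BP for binding a mitochondrial adenine nucleotide carrier, read 8.04, 8.04 and 7.94 in RKIP shRNA arrays, against 7.82, 7.73 and 7.74 in control arrays. Its log2 change was 0.24 ± 0.07 (SE, limma adjusted p = 0.048), just inside the threshold.

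These last 4 rises rested on having all 6 arrays. SLC35F6 and SLC68A1 lost their call in each of the 6 fits without 1 array. SLC71A2 kept it only without RKIP shRNA replicate 2 and SLC38A12 only without RKIP shRNA replicate 3 or control replicate 1. The number of SLC genes that rose was then 1 without RKIP shRNA replicate 1, control replicate 2 or control replicate 3, and 2 without RKIP shRNA replicate 2, RKIP shRNA replicate 3 or control replicate 1. The number that fell became 2 without RKIP shRNA replicate 2, when SLC51B joined SLC49A4, and without RKIP shRNA replicate 3, when SLC60A1 did. The share of all genes called was lower in these fits as well, at 13.3% to 16.1%. The log2 changes of the 4 genes stayed between 0.23 and 0.36.

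**Figure D2:**
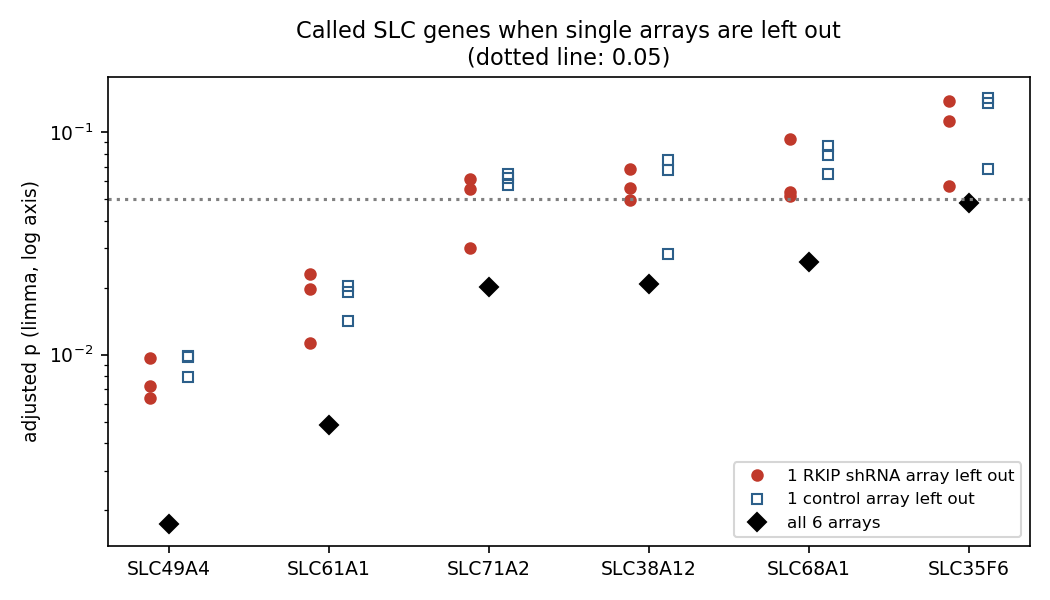
Adjusted p from limma (log axis) of the 6 called SLC genes with all 6 arrays (diamonds), with 1 RKIP shRNA array left out (circles) and with 1 control array left out (squares); the dotted line is 0.05. SLC49A4 and SLC61A1 stay under the line in every fit, whereas SLC68A1 and SLC35F6 lie above it in all fits without an array.

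The promoters of the gene that fell and of the 3 genes with the largest called rises are shown, since these genes carry the largest called changes of the set. Each runs from 250 bases before to 50 bases after the start of the gene, 5′ to 3′ on the plus strand of GRCh38.p14, and is taken from RefSeq. Capitals mark the E-box CACGTG, which is also the core of the element that lysosomal genes share, the CCAAT box on either strand (ATTGG on the minus strand) and TGATGNAA, the core of the amino acid stress element.
SLC49A4, chr3:122794819-122795118, plus strand: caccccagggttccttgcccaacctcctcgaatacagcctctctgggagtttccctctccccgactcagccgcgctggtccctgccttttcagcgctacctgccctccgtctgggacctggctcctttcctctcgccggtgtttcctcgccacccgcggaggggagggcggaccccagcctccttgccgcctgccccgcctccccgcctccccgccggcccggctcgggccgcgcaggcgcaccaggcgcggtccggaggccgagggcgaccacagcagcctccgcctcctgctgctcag
SLC61A1, chr12:53251845-53252144, plus strand: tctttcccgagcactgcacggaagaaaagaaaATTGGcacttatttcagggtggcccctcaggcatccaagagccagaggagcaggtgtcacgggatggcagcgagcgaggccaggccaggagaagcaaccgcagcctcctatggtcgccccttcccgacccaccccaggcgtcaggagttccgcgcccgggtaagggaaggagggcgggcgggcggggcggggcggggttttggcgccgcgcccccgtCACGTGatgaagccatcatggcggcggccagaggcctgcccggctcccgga
SLC38A12, chr17:74776249-74776548, plus strand: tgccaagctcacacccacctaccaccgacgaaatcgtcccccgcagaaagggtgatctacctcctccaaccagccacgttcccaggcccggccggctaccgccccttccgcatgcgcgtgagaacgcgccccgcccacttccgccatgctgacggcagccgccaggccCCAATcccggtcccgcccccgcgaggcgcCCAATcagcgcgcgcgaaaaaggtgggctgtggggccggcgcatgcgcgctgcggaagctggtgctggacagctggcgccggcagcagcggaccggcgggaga
SLC71A2, chr9:94374319-94374618, plus strand: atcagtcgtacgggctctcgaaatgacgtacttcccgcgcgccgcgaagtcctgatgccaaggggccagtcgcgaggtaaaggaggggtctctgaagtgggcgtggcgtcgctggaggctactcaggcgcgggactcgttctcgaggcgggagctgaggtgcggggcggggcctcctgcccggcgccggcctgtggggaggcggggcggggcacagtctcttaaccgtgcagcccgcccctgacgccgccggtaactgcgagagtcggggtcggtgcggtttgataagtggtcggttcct

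A promoter was used for 20 of the 26 genes. Windows on chr8 were left out for SLC genes but kept in the shares of all promoters. SLC35F6, SLC35D4, SLC66A2, SLC33A2, SLC25A2 and SLC20A1-DT are named only, and any of them on chr8 would have lost its window this way. The E-box lay in the windows of 2 of these 20 genes, SLC61A1 and SLC60A2, and in 7.26% of all 35116 promoters of that length. In SLC61A1 it spans the start of the gene, from base -1 to base 5. The CCAAT box was found in 5 of the 20 genes and in 34.6% of all promoters, and 3 of the 4 matched genes that rose held it: SLC61A1, SLC38A12 and SLC68A1, but not SLC71A2. SLC38A12 has CCAAT boxes that begin at bases -82 and -53, and SLC68A1 has them at bases -64 and -3. The amino acid stress element core was in the window of SLC51B alone, and in 3.62% of all promoters. SLC49A4, which fell, and SLC71A2, which rose, held none of the 3 marked motifs. The GC box GGGCGG, on either strand and not marked, was in 17 of the 20 genes and in 45% of all promoters. The shares of all promoters were counted per window and not limited to genes of the array, whereas SLC genes were counted per gene. GC content was not matched, and the printed windows held 67.7% to 72.7% G and C. These matches describe the letters in the windows and show no binding.

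Within the major facilitator group, 3 of 11 genes rose, 1 fell and 7 missed the threshold, with log2 changes from -0.66 to 0.52 and a median of 0.18. Over all genes, 20.2% were called. SLC49A4, SLC60A2, SLC67A2, SLC68A1, SLC71A1, SLC71A2 and SLC75A1 had a mean of at least 6, and 36.7% of all genes that bright were called. The others of the group had a mean under 6, where 8.96% of all genes were called. SLC75A1, formerly MFSD10 or TETRAN and described as an organic anion efflux protein, read 8.90, 8.87 and 9.02 in RKIP shRNA arrays, against 8.68, 8.74 and 8.72 in control arrays. The groups did not overlap, but its log2 change of 0.22 ± 0.07 had a limma adjusted p of 0.0778. SLC33A2, formerly MFSD3, read 6.09, 6.08 and 6.01 in RKIP shRNA arrays, against 5.77, 6.004 and 5.49 in control arrays. Its log2 change of 0.31 matched that of SLC71A2 in size, yet the control arrays were spread (SD 0.26, n = 3) and the limma adjusted p was 0.152.

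SLC71A1, the close relative of SLC71A2 and formerly MFSD14A, read 10.18, 10.27 and 10.32 in RKIP shRNA arrays, against 10.14, 10.11 and 10.15 in control arrays. Its log2 change was 0.12 with a 95% interval from -0.04 to 0.28. SLC60A1, formerly MFSD4A, read 3.88, 4.002 and 4.32 in RKIP shRNA arrays, against 4.32, 4.34 and 4.60 in control arrays, a log2 change of -0.35 (limma adjusted p = 0.12). It is dim in RKIP shRNA cells, with a mean of 4.07, just below 4.08, the median of all rows. Whether background affected its change was not tested. SLC60A1 has a named antisense gene, SLC60A1-AS1, whose log2 change was -0.16 (limma adjusted p = 0.407). SLC60A2, formerly MFSD4B and known in rat as a sodium-dependent glucose carrier, had a log2 change of -0.03 and SLC67A2, formerly MFSD9, of -0.01. The sign of SLC67A2 turned with quantile normalisation, to 0.01. SLC49A3, formerly MFSD7, read 4.79, 5.08 and 4.76 in RKIP shRNA arrays, against 4.55, 4.91 and 4.62 in control arrays, and the groups overlapped.

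**Figure D3:**
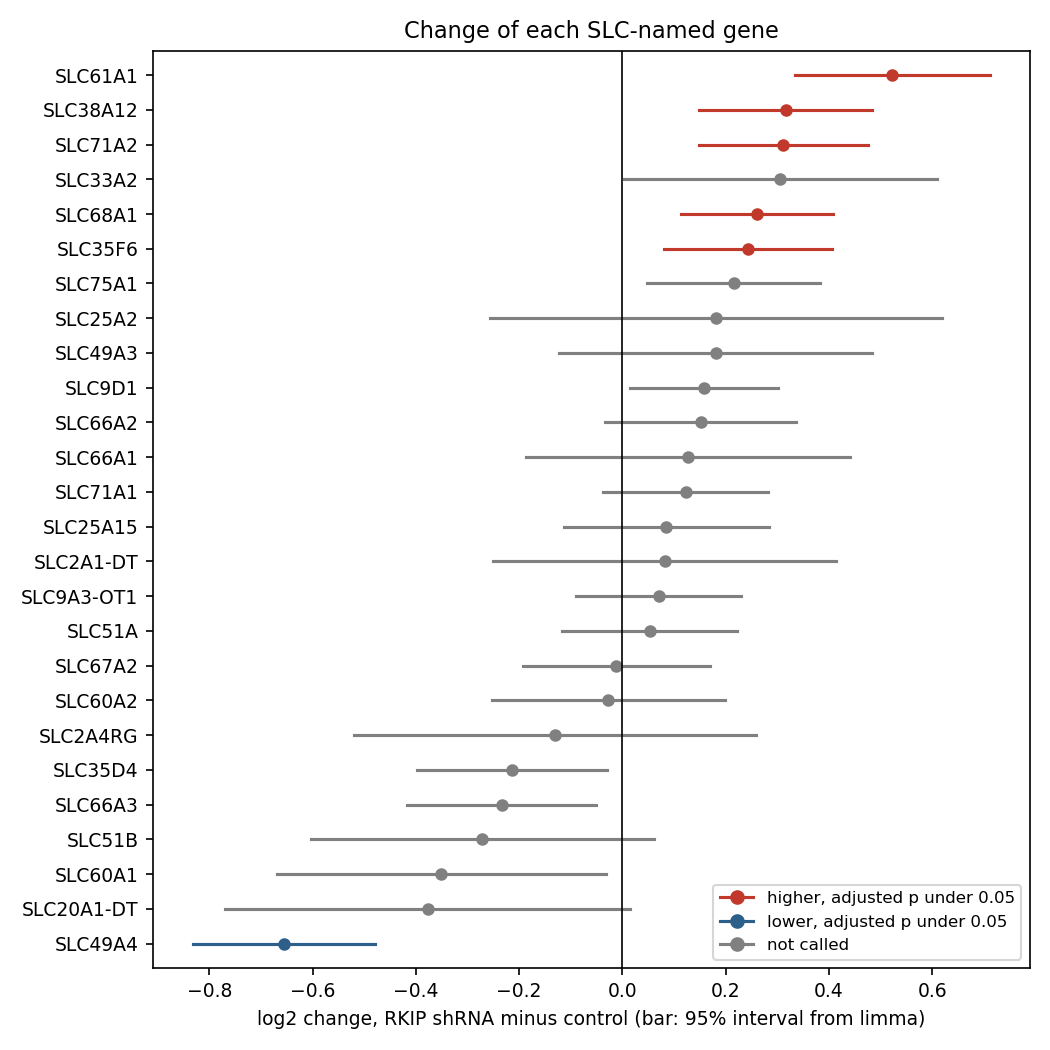
Log2 change of each SLC-named gene, RKIP shRNA minus control, as a point with its 95% interval from limma; colours separate genes higher, lower and not called at an adjusted p of 0.05. The intervals of SLC61A1 and SLC49A4 lie farthest from 0, and those of SLC25A2 and SLC20A1-DT are among the widest.

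None of the 3 PQ-loop genes passed the test by limma; SLC66A3 alone had an unadjusted p under 0.05. SLC66A1, the lysosomal exporter of arginine and lysine formerly called PQLC2, read 5.69, 5.48 and 5.84 in RKIP shRNA arrays, against 5.32, 5.72 and 5.60 in control arrays, and the arrays of both groups interleaved. SLC66A2 read 7.32, 7.45 and 7.22 in RKIP shRNA arrays, against 7.16, 7.18 and 7.19 in control arrays, a log2 change of 0.15 (limma adjusted p = 0.237). SLC66A3 pointed the other way, at 5.15, 4.98 and 4.96 in RKIP shRNA arrays, against 5.26, 5.22 and 5.32 in control arrays. Its groups did not overlap, and its log2 change of -0.23 ± 0.08 had a limma adjusted p of 0.0796.

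The ornithine carriers of the inner mitochondrial membrane did not pass the test in either case. SLC25A15, which feeds ornithine into mitochondria for the urea cycle, read 5.55, 5.35 and 5.39 in RKIP shRNA arrays, against 5.43, 5.35 and 5.26 in control arrays, a log2 change of 0.09 with a 95% interval from -0.11 to 0.28. SLC25A2, its second isoform, read 4.48, 5.09 and 4.58 in RKIP shRNA arrays, against 4.52, 4.78 and 4.30 in control arrays. Its interval, from -0.26 to 0.62, was the highest-reaching among the genes that were not called. SLC35D4, formerly TMEM241 and related to Golgi nucleotide sugar carriers, read 8.08, 7.93 and 8.06 in RKIP shRNA arrays, against 8.28, 8.14 and 8.29 in control arrays, a log2 change of -0.21 ± 0.08 (SE, limma adjusted p = 0.104).

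SLC51A and SLC51B encode the partners of a heterodimer that exports bile acids and steroids. SLC51A read 4.39, 4.25 and 4.22 in RKIP shRNA arrays, against 4.22, 4.24 and 4.24 in control arrays. SLC51B read 3.96, 4.27 and 3.71 in RKIP shRNA arrays, against 4.28, 4.32 and 4.16 in control arrays. Both lay near the median of all rows, and neither passed the test. SLC9D1, formerly TMCO3 and related to sodium-proton exchangers, read 8.44, 8.46 and 8.45 in RKIP shRNA arrays, against 8.30, 8.27 and 8.30 in control arrays. Its groups did not overlap and its replicates were tight, but the log2 change of 0.16 ± 0.06 had a limma adjusted p of 0.119.

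The 4 SLC-named genes that encode no transporter did not pass the test by limma, and none of them had an unadjusted p under 0.05. SLC2A4RG read 6.90, 7.02 and 7.02 in RKIP shRNA arrays, against 7.48, 6.79 and 7.07 in control arrays, and its control SD of 0.35 (n = 3) was the largest among the 26 genes. The non-coding genes SLC20A1-DT, SLC2A1-DT and SLC9A3-OT1 had log2 changes of -0.38, 0.08 and 0.07. SLC20A1-DT and SLC2A1-DT were dim in both groups.

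Genes of the same SLC family were compared by the difference of their log2 changes within arrays, over 9 pairs in 7 families. In 5 pairs the within-array differences of the groups did not overlap. Some of these pairs share a gene, SLC66A3. For single genes the groups did not overlap in 37.9% of all genes, and the share among other gene pairs was not computed. The gap was widest between SLC49A3 and SLC49A4, at 0.84, where the first had a log2 change of 0.18 and the other of -0.66. SLC35F6 and SLC35D4 differed by 0.46, SLC66A2 and SLC66A3 by 0.39, SLC66A1 and SLC66A3 by 0.36, and SLC71A2 and SLC71A1 by 0.19. In the remaining 4 pairs the groups overlapped, among them the ornithine carriers at a difference of 0.10. These differences are given as a description. The exact two-sided permutation test run on them cannot go below p = 0.10 with 3 arrays against 3, the value that the 5 pairs without overlap had.

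Level bore on which genes were called. Among 14 SLC genes with a mean of at least 6 over the arrays, 5 were called, or 35.7%, beside 36.7% of all 6045 genes that bright. Among the 12 dimmer SLC genes 1 was called, or 8.33%, beside 8.96% of 8839 genes. This split was chosen after the values had been seen. The median SD between replicates of the dimmer SLC genes was 0.18 in RKIP shRNA and 0.17 in control cells, against 0.07 and 0.06 for the brighter ones.

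**Figure D4:**
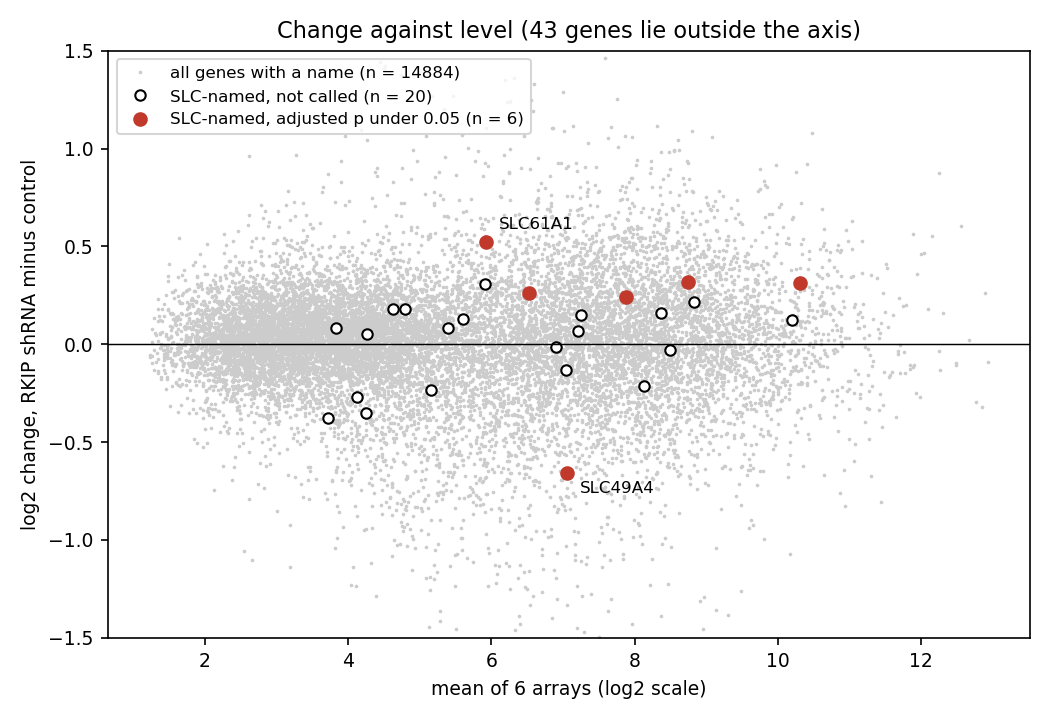
Log2 change, RKIP shRNA minus control, against the mean of 6 arrays (log2 scale) for all 14884 genes (grey dots) and for SLC-named genes that were called (filled circles) or not called (open circles). A total of 43 genes lies outside the axis range of -1.5 to 1.5. The SLC genes spread within the cloud of all genes, and 5 of the 6 called ones have a mean of at least 6.

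Some partners and regulators of carriers passed the test. From a list of 16 such genes 10 were measured, of which 4 rose, 1 fell and 5 missed the threshold, with a median log2 change of -0.03. All 10 had a mean of at least 6, and 36.7% of all genes that bright were called. MTF1, the zinc-sensing transcription factor that drives metallothionein and zinc exporter genes, read 9.45, 9.49 and 9.54 in RKIP shRNA arrays, against 8.66, 8.87 and 8.88 in control arrays, a log2 change of 0.69 ± 0.08 (SE, limma adjusted p = 0.00223). MCU, the pore of the mitochondrial calcium uniporter, read 9.09, 8.96 and 9.16 in RKIP shRNA arrays, against 8.47, 8.58 and 8.33 in control arrays, a log2 change of 0.61. BSG, basigin, which escorts monocarboxylate carriers to the cell surface, read 10.39, 10.44 and 10.41 in RKIP shRNA arrays, against 9.96, 9.83 and 9.82 in control arrays, a log2 change of 0.54. For these 3 genes the groups lay well apart.

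The alpha-arrestin genes, whose products bring membrane proteins in for degradation, split. ARRDC4 rose by 0.32 (limma adjusted p = 0.0194) and ARRDC3 had a log2 change of -0.39 (limma adjusted p = 0.0255). TXNIP, a relative that promotes uptake of glucose transporters from the surface, changed by -0.12 on the log2 scale, short of the threshold. EMB, another escort of monocarboxylate carriers, and the pyruvate carrier subunits MPC1 and MPC2 had log2 changes of -0.11, 0.03 and -0.09. TMEM165, a Golgi ion transporter, had a log2 change of -0.28 with a limma adjusted p of 0.064. Neither the 14 amino acid carriers listed for the integrated stress response nor the ATP-binding cassette transporters had a value under a gene name, and they were not analysed here.

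The 6 genes that still carry MFSD names, the relatives of the 11 major facilitator genes above, were looked at after the values had been seen. Among them 2 rose and 2 fell, where 10.0% of all genes rose and 10.2% fell. MFSD1, MFSD2A, MFSD8 and MFSD11 had a mean of at least 6, and 36.7% of all genes that bright were called. MFSD6 and MFSD6L had a mean under 6, where 8.96% of all genes were called. MFSD6 read 5.23, 5.20 and 5.13 in RKIP shRNA arrays, against 6.35, 6.29 and 6.27 in control arrays, a log2 change of -1.11 ± 0.07 (SE, limma adjusted p = 0.000228). That was larger in size than the change of any SLC gene. MFSD8, the lysosomal protein mutated in a form of neuronal ceroid lipofuscinosis, read 7.24, 7.20 and 7.22 in RKIP shRNA arrays, against 7.55, 7.61 and 7.57 in control arrays. MFSD1, another lysosomal membrane protein, rose by 0.39 and MFSD2A, a carrier of lysophospholipids, by 0.32 (limma adjusted p = 0.00675 and 0.0372). MFSD11 at -0.39 and MFSD6L at 0.11 did not pass.

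**Figure D5:**
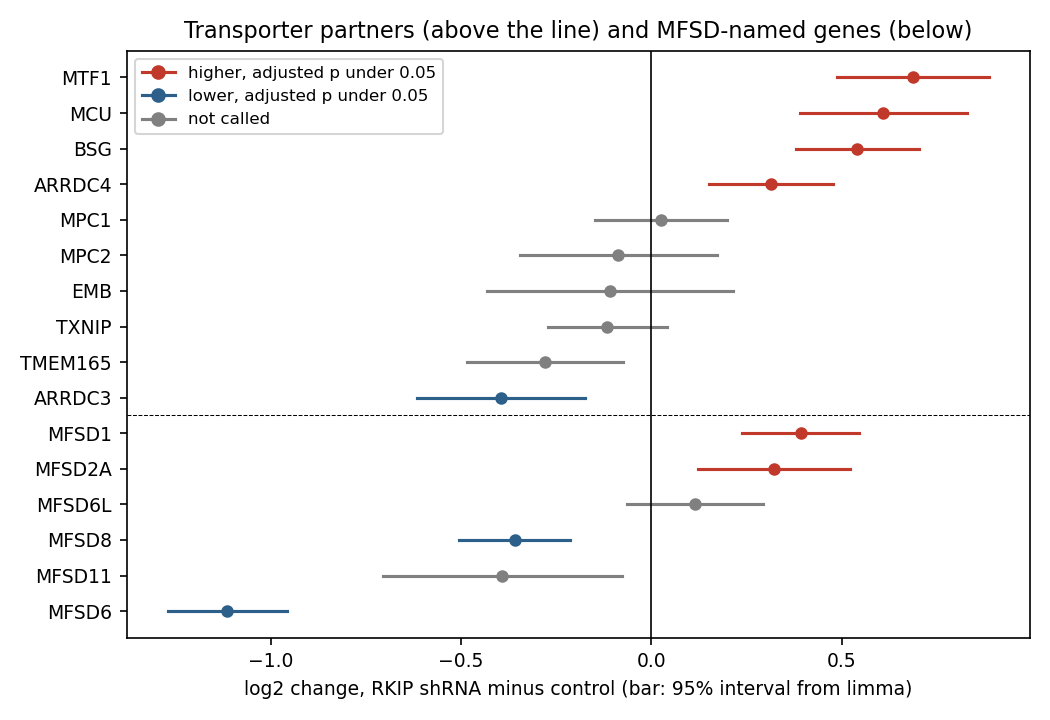
Log2 change, RKIP shRNA minus control, with 95% intervals from limma, for the measured partners and regulators of carriers (above the dashed line) and for MFSD-named genes (below it); colours separate genes higher, lower and not called. MTF1, MCU and BSG lie farthest to the right and MFSD6, at -1.11, farthest to the left.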

How the data were processed

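Total RNA (250 ng per array) from 6 THP-1 samples was hybridised to Affymetrix arrays, per the labels' protocols. The authors deposited 1 table of 53617 rows of normalised log2 values with 1 column per array; the scale was taken as log2 because values span 0.72 to 14.0 with array medians of 4.06 to 4.10. How probes were summarised and which genome build was used is not given in the sources used here. The array annotation gave 1 symbol to 16098 rows. All 26 SLC symbols are current in RefSeq (GRCh38.p14), whose table also gave the older names.

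RKIP shRNA minus control was fitted over 14884 genes by limma 3.58.1 (lmFit, eBayes; R 4.3.3), with Benjamini-Hochberg adjustment over all of them and calls at 0.05. Errors of log2 changes are standard errors. Pairs of arrays had exactly equal deposited values in 58 to 144 of the 53617 rows, so none was a copy of another. No batch is in the labels. Genes to name were set by a rule: PEBP1, the 12 called members with the largest rise and fall, up to 6 called members of each carrier subfamily, 2 of each other role group, the 3 members with the highest mean and called members of the lists. As the set is short, the remaining members are named too. The members and lists were chosen with earlier results of these data known. The alternatives tried were array weights, a replicate block, a trended and robust prior, centring on medians, quantile normalisation, leaving out dim genes, testing all rows, the mean of probes, stricter thresholds, leaving out the 4 genes that encode no transporter and leaving out each array. Figures were drawn with matplotlib 3.10.9.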

Additional observations from a re-analysis of the deposited data

How the results depend on the processing

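The fall of SLC49A4 and the rise of SLC61A1 were called under every alternative to the fit, with adjusted p-values up to 0.0114 and 0.0231. PEBP1 kept its fall throughout, at log2 changes from -1.54 to -1.41. The number of SLC genes that rose, 5 in the reported fit, was 4 with quantile normalisation or median centring, when SLC35F6 lost its call, and 7 with the trended prior or without dim genes. It was 1 when all rows were tested together, 1 at an adjusted p under 0.01, 1 for log2 changes of at least 0.5 and 1 to 2 when single arrays were left out. The number that fell was 2 with the trended prior, 3 without dim genes and 1 to 2 when single arrays were left out. The share of all genes called moved as well, from 20.2% in the reported fit. It was 20.8% with quantile normalisation, 19.5% with median centring, 26% with the trended prior and 38.2% of 9667 genes without dim genes. When all rows were tested it was 11.9%, with the replicate block 14.4%, and without single arrays 13.3% to 16.1%. For an adjusted p under 0.01 and for log2 changes of at least 0.5, the share of all genes was not computed. Same-numbered arrays of the groups did not deviate together (correlations of -0.02 to 0.02). The labels do not say whether equal numbers mark paired cultures, and these correlations cannot settle it. The reported fit left the arrays unpaired. With the replicate block 1 SLC gene rose and 2 fell. The median log2 change was 0.13 without dim genes, 0.14 without the 4 genes that encode no transporter and 0.0857 to 0.137 when single arrays were left out.

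The sign turned in 5 genes, none of them called. With quantile normalisation SLC67A2 had a log2 change of 0.0115. On leaving out single arrays, the ranges that crossed 0 were -0.0027 to 0.304 for SLC25A2, -0.0451 to 0.158 for SLC2A1-DT, -0.291 to 0.0524 for SLC2A4RG, -0.098 to 0.0403 for SLC60A2 and -0.0541 to 0.0298 for SLC67A2. For the genes not called, the array number limits what could be seen: their 95% intervals reached from -0.77 to 0.62. Whether dim genes were detected above background was not tested.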

Other observations

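The 10 antisense genes and 1 pseudogene with SLC names that the rule left out were read in the same fit. None passed the limma test at an adjusted p of 0.05, and 1 had an unadjusted p under 0.05. SLC39A12-AS1 had the largest log2 change among them, at -0.26 (limma adjusted p = 0.117), and 9 of the 11 had a mean under the median of all rows, 4.08. SLC25A25-AS1 had a mean of 6.71 over the 6 arrays and a log2 change of 0.03. SLC7A11-AS1, the antisense gene of the cystine carrier SLC7A11, had a mean of 2.95 and a log2 change of -0.12.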
